A study of Mus musculus with 4 samples.

Results

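The array entries mmu-miR-720, mmu-miR-1937a, mmu-miR-1937b, mmu-miR-1937c, mmu-miR-805 and mmu-miR-1983 carry miRNA names, are known as entries of tRNA or mitochondrial origin, and their signals were compared in HC11, an epithelial cell line from mouse mammary gland. They were chosen by the exact name of the probe and make up 6 of the 700 mouse entries on the array. Each stage had 2 samples. Differentiated cells had been held for 48 h in 2% serum without epidermal growth factor and then treated for 72 h with ovine prolactin at 1 µg/mL and dexamethasone at 100 nM, which together induce milk protein genes. Proliferating cells, which the labels call stem cell-like, grew in 10% serum with epidermal growth factor and were collected at 48 h. Both stages came from the same line, and nothing in the labels tells whether samples of 1 stage were separate cultures. The p-values below therefore concern these samples alone. In the main fit they rest on the spread between the arrays and, through limma, on that of all tested entries. This spread may be technical. Same-numbered samples held opposite stages in opposite dyes, and the design text describes dye swaps, so each such pair was taken to share an array. No array identifier was used for this, and the array ratios and their SDs below rest on it. Precision is limited by the number of arrays.

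A tRNA is transcribed as a precursor with a leader and a trailer. Both ends are cut away, and an enzyme then adds the bases CCA to the 3′ end, where the amino acid is attached; in mouse the genes do not encode this CCA. Mature tRNAs and their precursors are also cut into small RNAs, and several such fragments entered miRNA catalogues before their origin was recognised. A true miRNA is cut from a hairpin by Drosha and Dicer. Small RNAs under 300 nt were isolated here from 4 to 8 µg of total RNA, a size range that takes in whole tRNAs and 5S rRNA as well as miRNAs. The array therefore cannot tell a fragment from the intact tRNA that contains the same bases.

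The target sequences on the array show which entries could come from a finished tRNA. They are given 5′ to 3′ as the scanner tables list them. Capitals mark a CCA at the 3′ end in the first 4 entries and, in miR-1983, the bases that lie inside a tRNA gene.
miR-720: aucucgcuggggccuCCA
miR-1937a: aaucccggacgagcccCCA
miR-1937b: aucccggacgagcccCCA
miR-1937c: aucccggaagagcccCCA
miR-805: gaauugaucaggacauaggg
miR-1983: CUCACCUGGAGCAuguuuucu

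Of the 6 targets 4 ended in CCA, against 10 of all 700 targets (1.43%), and those 4 are counted in the 10. A CCA end is a match of letters and does not by itself show a tRNA. The same 4 were short and rich in G and C, with 18 or 19 bases and 66.7% to 72.2% GC, where the median target had 22 bases and 47.7% GC. miR-805 had 20 bases and 45.0% GC, and miR-1983 had 21 bases and 47.6% GC. There were 5 distinct seeds (bases 2 to 8) among the 6 entries, since miR-1937b and miR-1937c share UCCCGGA.

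The 3 miR-1937 entries are near copies. miR-1937a is miR-1937b with 1 more A at its 5′ end, so both probes can bind the same RNA, and their values are not independent. miR-1937c differs from miR-1937b by C9A, counted from 1 at the 5′ end with the base of miR-1937b first. Outside the group, the closest target to any of the 6 was 7 to 9 edits away. miR-1983 shared a run of 10 bases with 1 other target, that of miR-804.

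miR-1983 alone among the 6 matched an entry in the RefSeq miRNA table (GRCm38.p6), so an overlap with a tRNA gene was checked for it only. The origin of the other 5 is background and was not matched to a genome here. Its hairpin lies on the minus strand at chr13:21896918-21897049 and is printed with the mature sequence in capitals.
Mir1983 hairpin: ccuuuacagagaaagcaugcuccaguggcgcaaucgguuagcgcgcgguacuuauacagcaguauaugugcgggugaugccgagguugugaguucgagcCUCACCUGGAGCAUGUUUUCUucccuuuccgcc
RefSeq places an isoleucine tRNA gene, n-TItat14, inside this hairpin at chr13:21896938-21897031. The mature sequence (chr13:21896930-21896950) begins with 13 bases of the tRNA gene and runs 8 bases past its end, with no CCA. As background, bases past the end of a tRNA gene belong to the trailer, which is cut away as the tRNA matures. By its letters, miR-1983 holds such bases and no CCA, and miR-720 and the miR-1937 entries end in CCA.

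All 700 entries had 5 spots per sample, and empty spots averaged 39.1 and 287.8 intensity units in differentiated replicates 1 and 2, against 152.5 and 86.2 in proliferating replicates 1 and 2. Signals below are spot intensities over a local background. An entry was called detected where at least 3 of its 5 spots exceeded a margin set 3 SDs over the average empty spot. By that rule 187 and 165 entries were detected in differentiated replicates 1 and 2, and 203 and 138 in proliferating replicates 1 and 2. Of 6 epithelial marker miRNAs 4 were detected in every sample, among them miR-200a and miR-205, and neither endothelial marker was detected in any. The summed signal of the epithelial markers was 18364 and 44310 in differentiated replicates 1 and 2, against 5776 and 5117 in proliferating replicates 1 and 2. That of 6 fibroblast and mesenchyme markers was 547.2 and 4428 in differentiated replicates 1 and 2, against 704.3 and 758.3 in proliferating replicates 1 and 2. Of these 6, miR-143, miR-145 and miR-140 were detected in some sample. All 3 were detected in both differentiated samples and 1 in every sample. Of 4 muscle markers miR-206 alone was detected, in both proliferating samples, and the 4 summed to 20.7 and 200.3 in the differentiated samples, against 108.2 and 150.5 in the proliferating samples. Of 5 blood markers miR-486 alone was detected in any sample, and the 5 summed to 8.75 and 113.2 in the differentiated samples, against 26.7 and 45.6 in the proliferating samples. The part of these marker signals in the results was not tested.

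miR-720, miR-1937a, miR-1937b and miR-805 were detected in all 4 samples, with 5 of 5 spots above the margin in each. The spread between the 5 spots of these 4 entries was 3.88% to 19.1% of the mean. Brightness depends on how well a probe binds as well as on the amount of RNA, so levels are not ranked between entries as amounts. By brightness alone, miR-1937b stood at places 54 and 47 among the detected entries of differentiated replicates 1 and 2, and at places 26 and 24 in proliferating replicates 1 and 2. miR-720 stood at places 51 and 62 in the differentiated samples, against 42 and 43 in the proliferating samples. Both entries were nearer the top of the order in each proliferating sample than in either differentiated sample.

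Signals over background of miR-1937b were 962.2 ± 68.7 and 4288 ± 175.8 in differentiated replicates 1 and 2, against 3761 ± 179.6 and 3786 ± 209.0 in proliferating replicates 1 and 2 (SD over 5 spots). The groups overlapped on this scale, and the summed signal of all 700 entries was also highest in differentiated replicate 2. miR-1937a followed it, with 674.6 ± 69.0 and 3323 ± 215.5 in the differentiated samples and 2723 ± 164.5 and 3047 ± 349.0 in the proliferating samples. The ratio of miR-1937a to miR-1937b stayed between 0.701 and 0.805 in the 4 samples. miR-720 had 1069 ± 134.6 and 2412 ± 99.4 in the differentiated samples, against 2110 ± 82.0 and 1719 ± 165.8 in the proliferating samples. miR-805 had 326.7 ± 60.5 and 936.0 ± 142.3 in the differentiated samples, against 906.9 ± 96.5 and 902.8 ± 172.3 in the proliferating samples. For each of these entries the first differentiated sample was the lowest of the 4 and the second was the highest. The proliferating samples differed less from each other, and the source of the difference was not tested. The ratios below are scaled within each array, which did not remove all of it. Scaled log2 ratios of miR-1937b were -2.10 on array 1 and -1.24 on array 2.

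miR-1983 was the entry that followed the stage without any scaling. Its signal was 4.70 ± 2.82 and 56.3 ± 18.9 in differentiated replicates 1 and 2, against 188.2 ± 33.9 and 184.4 ± 18.3 in proliferating replicates 1 and 2. Neither differentiated sample detected it, with 1 of 5 and 0 of 5 spots above the margin, and both proliferating samples detected it with 5 of 5 spots. The groups did not overlap. The detection margin of differentiated replicate 2 was 156.5, higher than in the other samples, so a level slightly under the proliferating one would also have been missed there.

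miR-1937c was dim. Its signal was 8.36 ± 4.40 and 364.8 ± 108.2 in differentiated replicates 1 and 2, against 20.7 ± 5.19 and 109.7 ± 31.0 in proliferating replicates 1 and 2. It was detected in 3 of the 4 samples, and in differentiated replicate 1 only 2 of 5 spots exceeded the margin.

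**Figure D1:**
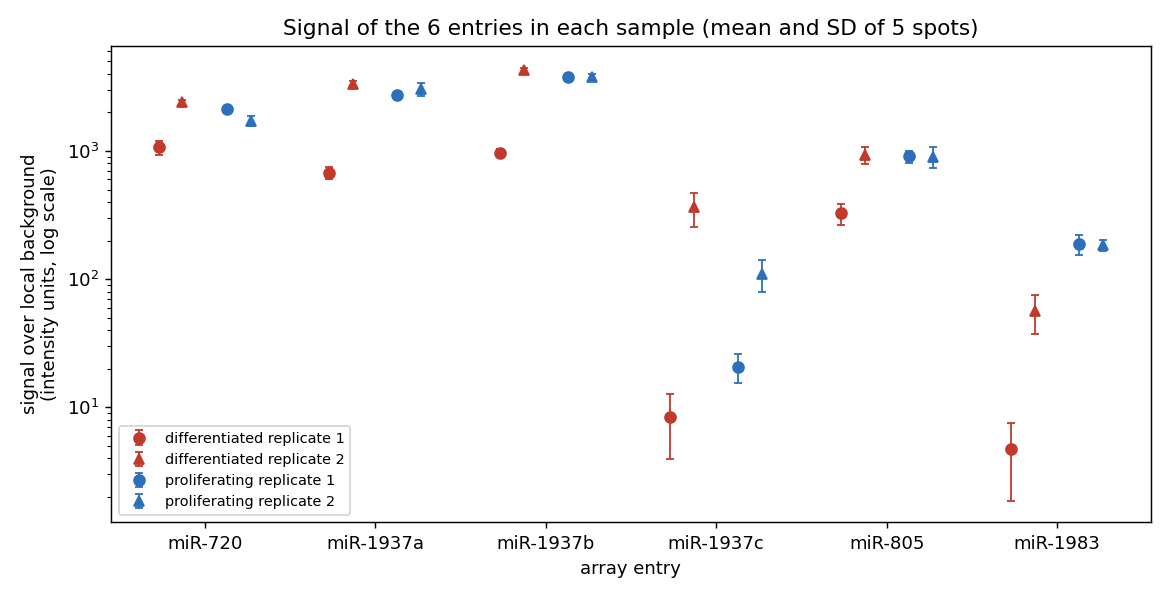
Signal over local background (intensity units, log scale) of the 6 entries in each differentiated (red) and proliferating (blue) sample, as mean and SD of 5 spots; circles are array 1 and triangles array 2. For miR-720, miR-1937a, miR-1937b and miR-805 the stages overlap, and for miR-1983 both differentiated samples (4.70 and 56.3) lie under both proliferating samples (188.2 and 184.4).

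Set against true miRNAs within the same sample, the bright entries were lower in both differentiated samples. A list of 39 conserved miRNAs, including the let-7 family, miR-21 and miR-205, served for this, and 38 of them were detected in every sample. The geometric mean signal of these 38 was 4309 and 11114 in differentiated replicates 1 and 2, against 2782 and 2963 in proliferating replicates 1 and 2. miR-1937b was at 0.223 and 0.386 of that mean in the differentiated samples, against 1.35 and 1.28 in the proliferating samples. miR-720 was at 0.248 and 0.217 in the differentiated samples, against 0.759 and 0.580 in the proliferating samples. miR-805 was at 0.0758 and 0.0842 in the differentiated samples, against 0.326 and 0.305 in the proliferating samples. These ratios did not overlap between the stages for these entries, and each is read only against the same entry in another sample. The conserved mean itself was higher in both differentiated samples. An entry of constant signal would therefore also be separated on this scale, so the separation is no result about these entries alone. The share of all entries that do not overlap was not counted on this or the other scales. With 2 samples against 2, the smallest p an exact permutation test allows is 0.333, so none was run.

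The 6 entries together made up 0.526% and 1.15% of the summed signal of all 700 entries in differentiated replicates 1 and 2, against 2.52% and 2.51% in proliferating replicates 1 and 2. The summed signal of the 6 itself was 3046 and 11381 in the differentiated samples, against 9711 and 9749 in the proliferating samples. That of all 700 was 579546 and 988150 in the differentiated samples, against 385967 and 387810 in the proliferating samples. The lower share therefore came with a larger total in both differentiated samples, and with a smaller sum of the entries in the first of them only.

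Spike controls and 5S rRNA gave other yardsticks. Over the geometric mean of 15 spike control probes, miR-720 was at 0.815 and 0.495 in differentiated replicates 1 and 2, against 0.580 and 0.327 in proliferating replicates 1 and 2. miR-805 was at 0.249 and 0.192 over the spikes in the differentiated samples, against 0.249 and 0.172 in the proliferating samples. miR-1937b was at 0.733 and 0.880 in the differentiated samples, against 1.03 and 0.719 in the proliferating samples. All 3 of these overlapped between the stages. Over 5 probes for 5S rRNA, the small rRNA of the large ribosomal subunit, miR-1937b was at 0.0403 and 0.166 in the differentiated samples, against 0.190 and 0.157 in the proliferating samples, again with overlap. miR-720 overlapped over 5S rRNA too, at 0.0448 and 0.0932 in the differentiated samples, against 0.107 and 0.0714 in the proliferating samples. miR-805 did not overlap over 5S rRNA, at 0.0137 and 0.0362 in the differentiated samples, against 0.0458 and 0.0375 in the proliferating samples. miR-1983 was separated on each of the 3 scales, at 0.00358 and 0.0116 over the spikes in the differentiated samples, against 0.0517 and 0.0350 in the proliferating samples.

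**Figure D2:**
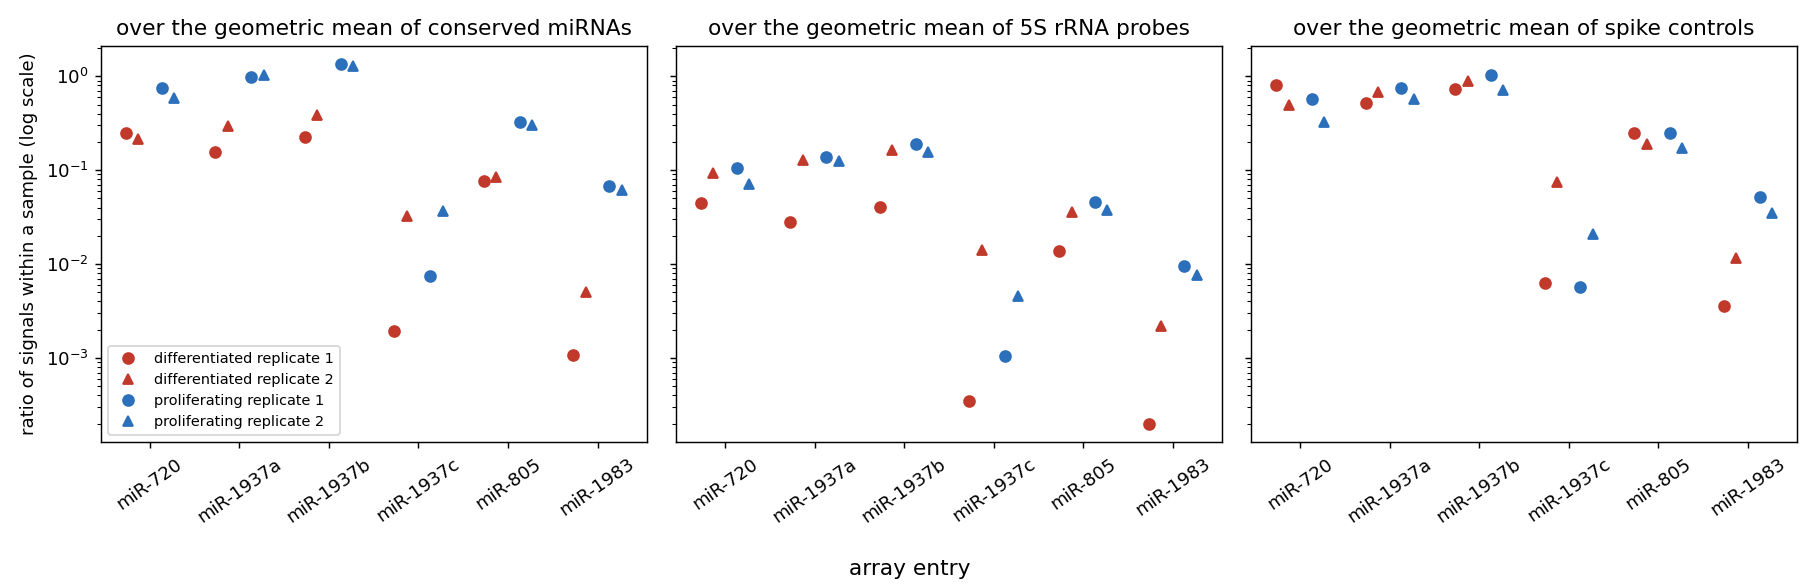
Signal of each entry divided, within its own sample, by the geometric mean signal of 38 conserved miRNAs (left), 5 probes for 5S rRNA (middle) or 15 spike controls (right), on a log scale; red is differentiated, blue proliferating. Over the conserved miRNAs both differentiated values lie under both proliferating values for every entry except miR-1937c. Over the spikes the stages overlap except for miR-1983, and over 5S rRNA they overlap except for miR-1983 and miR-805. The share of all entries without overlap was not counted.

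For the test, ratios of differentiated over proliferating cells were normalized within each array by loess, a smooth fit that centres the ratios of the miRNA probes at each brightness, and fitted with limma on the 172 entries that both samples of 1 or both stages detected. All 6 entries were among the 172. On this scale, relative to the bulk of miRNA probes, miR-805, miR-1937a, miR-1937b and miR-720, the 4 entries detected in all 4 samples, fell in differentiated cells. They were also the 4 called lower when only the 118 entries detected in all samples were tested, where 17 of the 118 were. miR-1983 passed the threshold as well, but it entered the test only through the proliferating samples and so had to be lower in differentiated cells. miR-1937c was not called. Over all 172, 13.4% were called lower and 16.9% higher at a limma adjusted p under 0.05 (Benjamini-Hochberg). As a description, the median log2 ratio of the 6 was -1.50, beside 0.11 for all tested entries. Because miR-1937a and miR-1937b can report the same RNA, their calls may stand for 1 target.

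miR-1983, whose sequence runs past the end of the tRNA gene, was detected in neither differentiated sample. A floor estimate is therefore given in place of a measured fold. For it, each differentiated sample took the higher of the entry's own level and the lowest level of any detected entry. By this estimate miR-1983 was 2.80-fold lower in differentiated cells on the loess scale. Its mean normalized log2 level was 8.20 in the proliferating samples. In the differentiated samples the mean was 6.37 measured and 6.72 by the floor estimate. In differentiated replicate 1 it was undetected at 6.62, above the lowest detected level of 6.57. An undetected entry can thus exceed that floor, and 2.80-fold is no strict bound. The limma adjusted p of 0.0151 belongs to the fitted ratio. It is no support, because the entry was tested only through the proliferating samples. With spike and 5S rRNA centring the fitted log2 ratio was -0.59 and -0.99, without a call, so the floor estimate holds on the loess scale only. The fitted log2 ratio is no bound either and moved with the background correction. It was -1.83 with the offset of 50, -2.48 with an offset of 16, -4.26 with plain subtraction and -3.75 from the authors' deposited table.

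miR-805, known as an entry of mitochondrial origin, was 2.51-fold lower, with a log2 ratio of -1.33 ± 0.03 (limma adjusted p = 0.0241). After each log2 ratio here and below, ± gives the SD of the 2 array ratios. The standard error of the limma fit, from which the p-value comes, was 0.177 for this entry. miR-805 was at -1.31 on array 1 and -1.35 on array 2. Its normalized log2 levels were 9.05 and 8.82 in differentiated replicates 1 and 2, against 10.36 and 10.16 in proliferating replicates 1 and 2. The arrays differed less for miR-805 than for any other of the 6 entries. With spike scaling its value was -0.09, and with median centring of all miRNA spots its call was lost (-0.75, limma adjusted p = 0.223).

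miR-1937a and miR-1937b were 3.19-fold and 3.17-fold lower, with log2 ratios of -1.67 ± 0.54 and -1.67 ± 0.61 (limma adjusted p = 0.0352 and 0.0402). The arrays differed most here. Ratios on array 1 were -2.05 for miR-1937a and -2.10 for miR-1937b, and on array 2 they were -1.29 and -1.24. Because the dyes were swapped, a dye effect of the probe and a difference between replicates cannot be told apart in that spread. Normalized log2 levels of miR-1937b were 10.30 and 11.03 in the differentiated samples, against 12.40 and 12.26 in the proliferating samples, without overlap. Both calls were lost when all 700 entries were tested (limma adjusted p = 0.144 for miR-1937a and 0.168 for miR-1937b) and when the entries above the median signal were (0.0869 and 0.104). The call of miR-1937b was also lost with an eBayes trend (limma adjusted p = 0.0522).

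miR-720, an entry known in human as a fragment of a threonine tRNA, was 2.03-fold lower. Its log2 ratio was -1.02 ± 0.10 (limma standard error 0.182, adjusted p = 0.0395), with -1.10 on array 1 and -0.95 on array 2. In size this was the smallest of the 4 changes. The call was lost with an eBayes trend (limma adjusted p = 0.0752) and with dye as a covariate in place of the array block (limma adjusted p = 0.0622). In the fit of 4 samples without the array as a block, leaving out differentiated replicate 2 gave -0.88 (limma adjusted p = 0.107) and leaving out proliferating replicate 1 gave -0.81 (limma adjusted p = 0.218). Its sign turned with spike scaling, to 0.21.

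miR-1937c was at -0.01 ± 0.08, with -0.06 on array 1 and 0.04 on array 2 (limma adjusted p = 0.966). Its signal in differentiated replicate 1 was 8.36, close to the margin of 7.75, and the background correction adds an offset of 50, which pulls the ratio of so dim a probe toward 0. With an offset of 16 the ratio of miR-1937c was -0.04 and with plain subtraction it was -0.29. Those of miR-1937b were -1.69 and -1.66. On array 2, where both samples detected miR-1937c, its ratio of 0.04 stood beside -1.24 for miR-1937b. A smaller offset thus did not bring the values together. Whether miR-1937c behaved otherwise than miR-1937b was not tested.

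**Figure D3:**
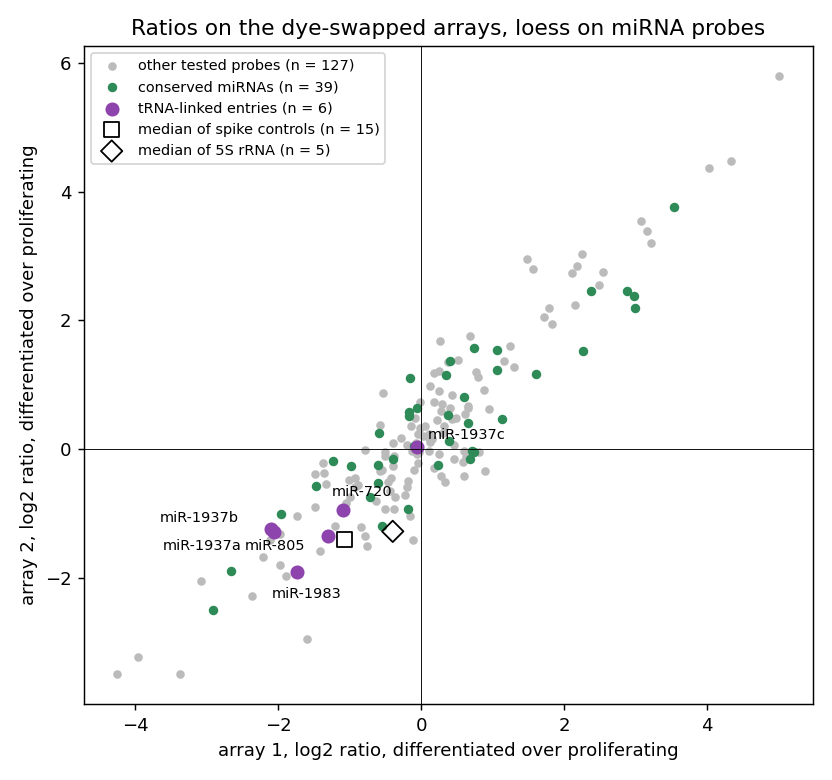
Log2 ratio of differentiated over proliferating cells on array 1 (x axis) and on array 2 with swapped dyes (y axis) for the 172 tested entries, normalized by loess on the miRNA probes. The tRNA-linked entries are purple, the square is the median of the spike controls and the diamond that of the 5S rRNA probes; miR-720, miR-805, miR-1937a, miR-1937b and miR-1983 lie below 0 on both arrays, and miR-1937c lies near 0.

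The spike control probes were themselves lower in the differentiated channels on this scale. Their median log2 ratio was -1.07 on array 1 and -1.40 on array 2, and the 15 probes ranged from -2.87 to -0.02 on array 1 and from -1.86 to -1.14 on array 2. The 5S rRNA probes had medians of -0.40 and -1.27, with a range of -0.74 to 0.18 on array 1. The sources used here do not give the amount of spike RNA added to each sample. The conserved miRNAs had a median log2 ratio of 0.35 on array 1 and 0.41 on array 2.

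Centred on the spikes, 0 of the 6 entries were called lower by limma (0 also at an unadjusted p under 0.05), where 4.65% of all tested entries were, and 1 was called higher, where 68.0% were. The 1 was miR-1937c, at 1.23 (limma adjusted p = 0.00279), and it follows from the shift of an entry that was at 0 before. miR-720 was at 0.21 ± 0.33 and miR-805 at -0.09 ± 0.20 (SD, n = 2 arrays). miR-1937a and miR-1937b were at -0.44 ± 0.77 and -0.43 ± 0.84, each below 0 on array 1 (-0.98 and -1.02) and above 0 on array 2 (0.11 and 0.16). miR-1983 stayed below 0 on both arrays, at -0.66 and -0.51, and was not called (limma adjusted p = 0.154). The median of the 6 was -0.26 and that of all tested entries 1.35, so the distance between them was the same as before by construction.

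With the 5S rRNA probes as the zero, 0 of the 6 were called in either direction at a limma adjusted p under 0.05 (0 in either direction at an unadjusted p as well), where 3.49% of all tested entries were called lower and 27.3% higher. The 6 entries then had a median of -0.66, against 0.95 over all tested entries. miR-1983 was at -0.99, miR-1937a at -0.84, miR-1937b at -0.83, miR-805 at -0.49, miR-720 at -0.19 and miR-1937c at 0.83. The standard error was 0.60 for each of them in this fit, because the 5S probes differed between the arrays. Apart from the call of miR-1937c with spike scaling, no difference in these entries per unit of spike or 5S rRNA was detectable with these 2 arrays.

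Among scales set by miRNAs the calls also differed. Centred on the median of all miRNA spots with no loess, miR-1983 alone of the 6 was called lower, where 13 of all 172 tested entries were. On that scale miR-720 was at -0.35 (limma adjusted p = 0.594), miR-1937a at -1.02 (0.0929) and miR-1937b at -0.98 (0.108). Centred on the conserved miRNAs, the same 5 entries were called as with loess, but 58 of all 172 tested entries were then lower, against 23 with loess. The calls thus depend on which miRNA signals define 0.

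**Figure D4:**
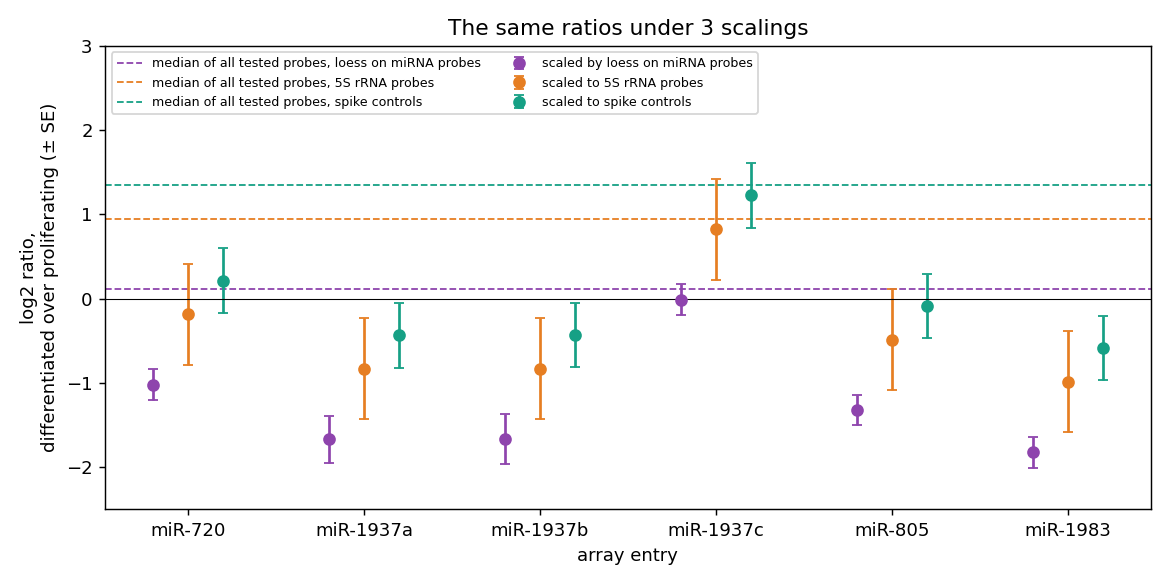
Log2 ratio of differentiated over proliferating cells for the 6 entries (points, with the standard error of the limma fit) when the arrays were scaled by loess on the miRNA probes, to the 5S rRNA probes or to the spike controls; dashed lines are the medians of all 172 tested entries under the same scalings (0.11, 0.95 and 1.35). Each change of scale lifts all entries together, and every entry stays under the dashed line of its own scale.

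On the loess scale 9 of 39 conserved miRNAs rose and 2 fell, where 16.9% of all tested entries rose and 13.4% fell, with a median of 0.28 and a range of -2.70 to 3.65. A list of miR-712 and the entries numbered miR-2132 to miR-2146 had 16 members on the array, of which 12 were tested. Of the tested ones 8 rose and 0 fell (1 fell at an unadjusted limma p under 0.05), with a median of 2.25, from miR-2142 at -1.07 ± 0.40 (limma adjusted p = 0.0576) to miR-2138 at 5.40 ± 0.55. The miR-2138 signal was 5099 and 17532 in differentiated replicates 1 and 2, against 88.4 and 42.0 in proliferating replicates 1 and 2, the second of these under its detection margin of 53.7. Of the 8 that rose, miR-2143 was detected in the differentiated samples only, so it entered the test through them and had to be higher. miR-2135, which was not called, entered the same way and is part of the median. miR-2132, miR-2133, miR-2134 and miR-2138 were missed in proliferating replicate 2, so they too entered through the differentiated samples. The difference between this list and the 6 entries was not tested. miR-1274a, chosen here after its sequence was seen to end in CCA, was detected in 0 of the 4 samples.

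The authors' deposited value table gave the same direction for the called entries. In it miR-1983 had 16.2 and 19.2 in differentiated replicates 1 and 2, against 291.9 and 214.02 in proliferating replicates 1 and 2. miR-1937b had 1302 and 1803 in the differentiated samples, against 4897 and 5173 in the proliferating samples. miR-720 had 1294 and 794.9 in the differentiated samples, against 3182 and 2934 in the proliferating samples. In these processed values the stages did not overlap for any of the 3. A limma fit to the table called miR-1983 and the same 4 bright entries lower, where 32.6% of all tested entries were lower and 27.9% higher. The sources used here do not say how the table was scaled or centred, and it comes from the same arrays, so it is a second processing and no second measurement.

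The 3 tested entries outside the group with ratios closest to the median profile of the 6 (-1.52 on array 1 and -1.26 on array 2), by Euclidean distance over the 2 array ratios, were miR-351 at a distance of 0.32, miR-130a at 0.33 and miR-15b at 0.34. Their log2 ratios were -1.38 ± 0.50, -1.19 ± 0.01 and -1.50 ± 0.12.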

How the data were processed

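Per the labels' protocols, a service provider tailed the small RNAs of HC11 cells with poly(A) and stained a ligated tag with Cy3 or Cy5. The deposited scanner tables hold, for each spot, its mean intensity and SD in 1 dye channel per sample, with the background still in, per the file headers. The authors' value table holds a processed intensity per entry. The sources used here do not name the image software.

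Samples were grouped by the treatment in their titles, and same-numbered samples with opposite dyes were taken as 1 array. Across the tested entries, same-numbered samples deviated together from their stage means (r = 0.343). The normalization worked within these assumed arrays, so this value is not read as a test of the pairing. The concentration of epidermal growth factor has 2 units in the labels and is not printed.

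The local background of a spot was the 20th percentile over its neighbours up to 7 rows and 7 columns away. It was corrected with normexp (offset 50) in limma 3.58.1 under R 4.3.3, and each array was then normalized by loess with span 0.3 and weight 0 for control spots. The 5 spots were averaged, and log2 ratios were tested with lmFit and eBayes, two-sided, with Benjamini-Hochberg adjustment over 172 entries (1 residual degree of freedom, prior 2.08). The floor estimate for miR-1983 sets its proliferating mean against a level for the differentiated samples. That level is, per sample, the higher of the entry's own level and the lowest level of any detected entry. These are log2 values after Aquantile scaling. For spike and 5S scaling, each array's median ratio of those probes was subtracted, with no error for the controls. Spike controls were the probes of that type detected in all 4 samples. The fit was tested on simulated data. Values of the authors' table were taken as log2 of the value plus 1.

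All 6 entries are described, and the nearest entries were the 3 of smallest distance. The members, lists and tests were chosen with earlier results of these data known.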

Additional observations from a re-analysis of the deposited data

How the results depend on the processing

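The counts of tRNA-linked entries called lower (5) and higher (0) rest on the scale. The 5 include miR-1983, which entered the main test only through the proliferating samples and so had to be lower. Every count of lower tRNA-linked entries above 0 given below includes it too. Among the 118 entries detected in all samples, 4 tRNA-linked entries were lower, where 17 of the 118 were. In the main analysis 23 of all 172 tested entries were lower and 29 higher. Spike centring gave 0 lower and 1 higher, where 8 and 117 of all 172 were. With 5S rRNA centring 0 were lower, where 6 of 172 were. Spike centring with no loess, a setting chosen after seeing the data, gave 0 lower, where 7 of 172 were. Centring on the median of all miRNA spots with no loess gave 1 lower (miR-1983), where 13 of 172 were. Centring on the median of the tested entries instead, also chosen after seeing the data, gave 4, without miR-720, where 34 of 172 were. With no filter on dim probes and with entries above the median signal, 3 were lower (miR-720, miR-805 and miR-1983 under both). Of all entries tested, 13 of 700 and 13 of 350 were lower there. With eBayes trend 3 were lower (miR-805, miR-1937a and miR-1983), where 24 of 172 were. The filters change the number of entries that p-values are adjusted over; otherwise the cause was not tested. Without the replicate block the counts were 5 lower and 0 higher, where 27 and 32 of 172 were. With dye as a covariate as well 4 were lower, where 24 of 172 were. When 1 sample at a time was dropped from the fit without the replicate block, the 5 entries called in the main analysis stayed below 0. That fit takes the remaining sample to vary as those of the other stage do. miR-720 turned sign with spike centring (0.21) and with spike centring and no loess (0.22). miR-1937c, near 0 and not called in the main analysis, turned to 1.23 with spike centring, 0.83 with 5S centring, 0.87 with spike centring and no loess, and 0.29 with median centring; with 1 sample left out it ranged from -0.47 (without differentiated replicate 2) to 0.45 (without differentiated replicate 1), being 0.39 without proliferating replicate 2, and on array 2 alone it was 0.04. miR-805, miR-1937a, miR-1937b and miR-1983 kept their sign in each alternative run. With a margin of 2 SDs miR-1937c was detected in all 4 samples. The signal over background limits miR-1983 to a floor estimate and miR-1937c to near-margin values.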
